A study of Mus musculus with 28 samples.

Results

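Transcripts of 10 genes of purine breakdown, adenosine clearance and purine signaling were followed through every library of the series: Pnp, Pnp2, Adk, Entpd1, Entpd2, Nt5e, Adora1, Adora2a, Adora2b and P2ry1. They were taken by symbol, matched to Ensembl identifiers in the GENCODE M21 annotation of GRCm38, and are 10 of the 53342 gene identifiers in each of the 3 count tables (53343 over the 3 tables, because 1 identifier is cut short in the P24 bulk table). All 10 passed the filter on low counts in each of the 8 comparisons. Transcripts were counted in the cerebral cortex of conditional knockout (cKO) and control (Ctrl) mice on a C57BL/6J background: bulk RNA-Seq at postnatal day 24 (P24) and at P17, each with 4 cKO and 4 Ctrl mice, and translating ribosome affinity purification (TRAP-Seq) at P24 with 3 cKO and 3 Ctrl mice. TRAP-Seq gave 2 libraries per mouse, the Input, which is a part of the cleared homogenate, and the immunoprecipitate (IP) of ribosomes that carry EGFP fused to the ribosomal protein L10A. A single gene was flanked by loxP sites on both alleles in cKO mice and deleted through the driver mGFAP-Cre, and for the bulk libraries sex-matched littermates of genotype loxP/loxP or loxP/+ that lacked the driver served as Ctrl. In TRAP-Seq the tagged ribosomes depended on the same mGFAP-Cre driver, so the IP holds the ribosomes of whichever cells the driver was active in. The Ctrl mice of TRAP-Seq were loxP/loxP or loxP/+ as well, and how the driver was combined with these alleles in them is not given in the sources used here. Each bulk library came from the cortex of 1 mouse, as did each pair of TRAP-Seq libraries.

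ATP and ADP that reach the outside of a cell act on P2 receptors, among them the Gq-coupled ADP receptor P2ry1, and are degraded stepwise by ectonucleotidases: Entpd1 (CD39) and Entpd2 remove phosphates to give ADP and AMP, and Nt5e (CD73) turns AMP into adenosine. Adenosine acts on the inhibitory Gi-coupled receptor Adora1 and the Gs-coupled receptors Adora2a and Adora2b. It is cleared inside cells, above all in astrocytes, by adenosine kinase (Adk), which phosphorylates it to AMP, or by deamination to inosine, which purine nucleoside phosphorylase (Pnp and its paralog Pnp2) splits into hypoxanthine and a sugar phosphate.

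Bulk libraries held 8855488 to 14575306 counts and TRAP-Seq libraries 18433087 to 27242445. Levels are given in CPM, the count relative to library size with TMM scaling. Before that scaling, a floor of 3 counts equals 0.206 to 0.339 CPM of the total count in bulk and 0.110 to 0.163 CPM in TRAP-Seq. The 8 astrocyte markers summed to between 12060 and 16570 CPM in the IP and to between 1113 and 2350 CPM in the Input. The 6 neuron markers summed to 1999 to 2438 CPM in the IP and 4538 to 5209 CPM in the Input. For the 6 oligodendrocyte markers the sums were 1469 to 2324 CPM in the IP and 2692 to 2924 CPM in the Input. The 6 endothelial markers were low in both, at most 4.304 CPM in the IP and 9.821 CPM in the Input. Marker transcripts of other cell types were thus present in the IP. The 7 markers of striatal projection neurons, some of which cortical neurons also express, summed to between 270.5 and 900.2 CPM in the bulk libraries and to between 1038 and 1436 CPM in the Input. That sum was lowest in 4 bulk libraries. At P24 these were cKO replicates 1 and 4, at 270.5 and 384.9 CPM, and the others ran from 519.2 to 900.2 CPM. At P17 they were Ctrl and cKO replicate 3, at 320.3 and 360.2 CPM, and the others held 702.6 CPM or more. In bulk tissue a smaller number of cells of a type and less RNA per cell cannot be told apart.

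**Figure D1:**
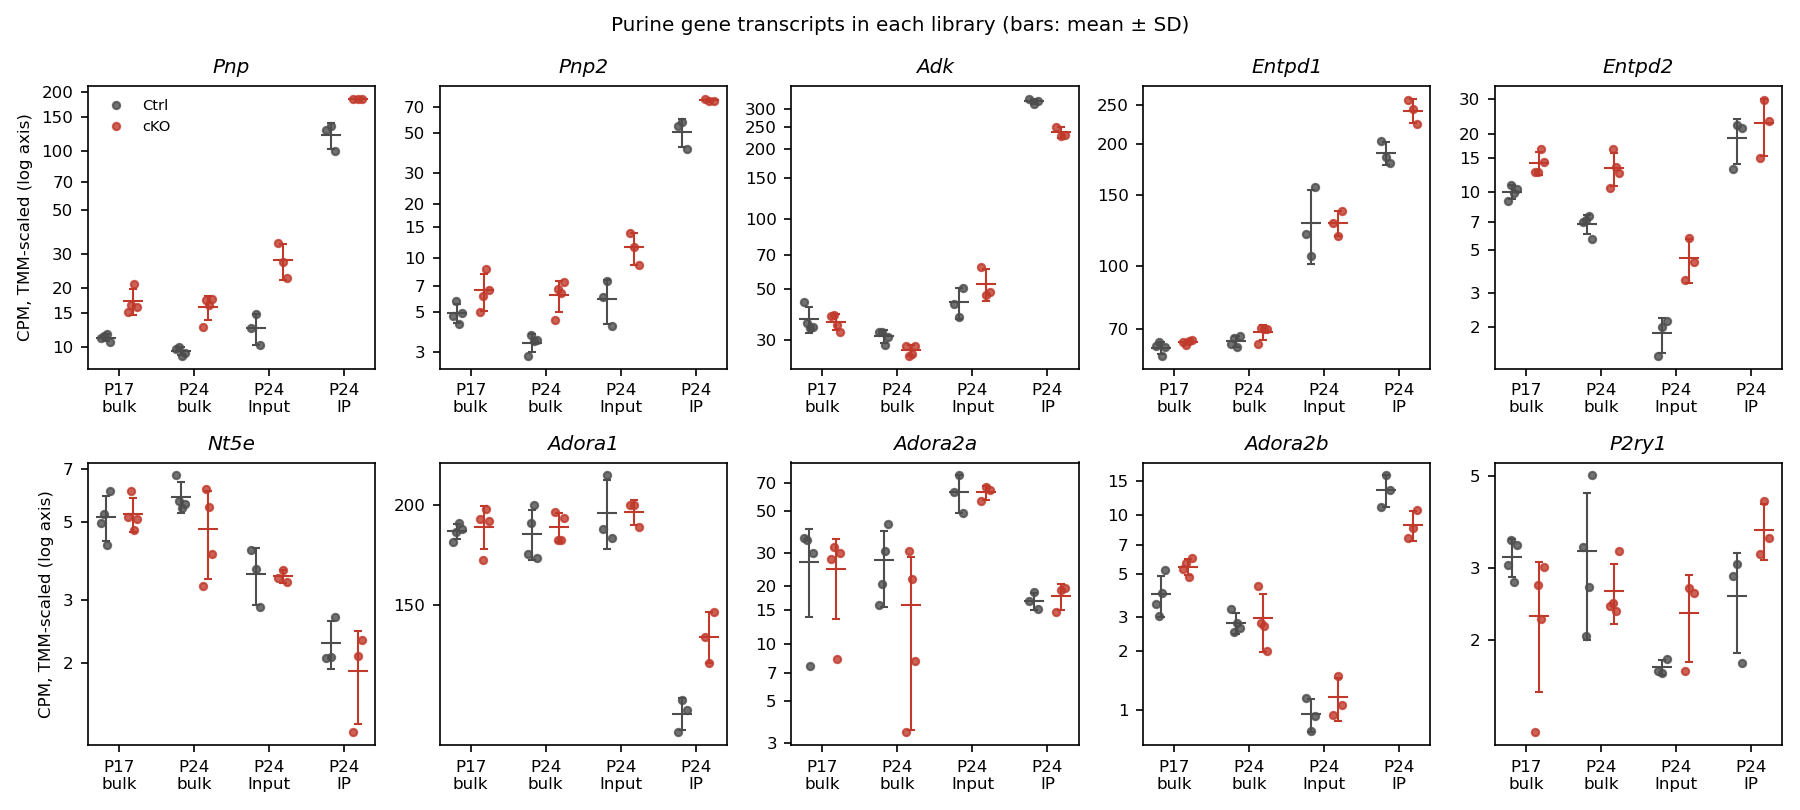
CPM of each of the 10 genes (y axis, log scale) in every library, by experiment (x axis) and genotype (Ctrl gray, cKO red), with bars for mean ± SD over 4 mice in bulk and 3 in TRAP-Seq. The cKO and Ctrl libraries separated for Pnp in all 4 experiments, for Adk and Adora2b with cKO lower in the IP, and Adora1 lay lower in the IP than in the Input.

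Levels between genes were compared per kilobase of exon (RPKM). In the bulk cortex of P24 Ctrl mice, Adora1 stood first with 31.8 ± 2.37 RPKM (SD, n = 4), followed by Entpd1 with 11.7 ± 0.344 RPKM and Adora2a with 8.94 ± 3.85 RPKM. The ranges of Entpd1 and Adora2a overlapped, as did those of the neighboring pairs Adk and Entpd2, Pnp and Pnp2, and P2ry1 and Nt5e. Adk stood at 3.65 ± 0.225 RPKM, Entpd2 at 3.22 ± 0.360, Pnp at 2.40 ± 0.106 and Pnp2 at 2.13 ± 0.235. Adora2b came next at 1.51 ± 0.192 RPKM, and P2ry1 and Nt5e closed the order at 0.765 ± 0.297 and 0.684 ± 0.0679 RPKM. In the IP of Ctrl mice the order was another one, with Adk first at 37.9 ± 0.900 RPKM (SD, n = 3), then Entpd1 at 34.1 ± 2.23, Pnp2 at 32.1 ± 5.72 and Pnp at 30.5 ± 4.63, of which the last 3 overlapped. Adora1 was at 19.0 ± 0.909 RPKM there and Adora2a at 5.50 ± 0.561. When the longest transcript served as the length, Adk came to 7.33 RPKM in P24 Ctrl bulk and to 76.1 RPKM in the Ctrl IP, because that transcript covers 0.498 of its annotated exonic bases. For Nt5e it covers 0.464, and with that length Nt5e came to 1.47 RPKM in P24 Ctrl bulk. Nt5e then stood above P2ry1 at 0.845 RPKM and close to Adora2b at 1.51 RPKM.

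The IP was compared with the Input to ask which of these transcripts were bound to the tagged ribosomes. In all, 9 of the 10 genes were called at an adjusted p under 0.05 by edgeR's quasi-likelihood test in Ctrl mice, 6 higher and 3 lower in the IP, where 71.0% of all genes tested were called, 35.3% higher and 35.7% lower. In cKO mice 9 were also called, 6 higher and 3 lower, against 56.3% of all genes, 27.8% higher and 28.5% lower. Adora2b had the largest difference in Ctrl mice. It was at 1.14, 0.778 and 0.924 CPM in the Ctrl Input (27, 14 and 18 reads) and at 11, 16 and 13.5 CPM in the Ctrl IP, a log2 fold change of 3.79 (SE 0.21, adjusted p = 2.8e-08). Entpd2, Pnp, Pnp2 and Adk were higher in the Ctrl IP by 3.34 (SE 0.24), 3.26 (SE 0.16), 3.09 (SE 0.20) and 2.88 (SE 0.11) on the log2 scale. For these 5 genes every IP library lay above every Input library in both genotypes. IP and Input did not overlap for 9 of the 10 genes in Ctrl mice, as for 74.4% of all genes tested, and for all 10 in cKO mice, as for 63.9%.

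Entpd1, which is known from microglia and vessels, was higher in the IP by 0.57 (SE 0.13, adjusted p = 0.00154) in Ctrl mice and by 0.90 (SE 0.15, adjusted p = 0.000906) in cKO mice. The Ctrl Input held 120, 106 and 157 CPM and the Ctrl IP 204, 186 and 180 CPM. The 8 microglial markers moved the other way in Ctrl mice, from sums of 208.8 to 236 CPM in the Input to 122.5 to 145.3 CPM in the IP. The genes that were lower in the IP were 2 adenosine receptors and Nt5e. Adora1 went from 187, 218 and 182 CPM in the Ctrl Input to 104, 114 and 111 CPM in the Ctrl IP, a log2 fold change of −0.85 (SE 0.10, adjusted p = 1.65e-05), and by −0.53 (SE 0.14, adjusted p = 0.0113) in cKO mice. Adora2a fell by 1.91 on the log2 scale in Ctrl mice (SE 0.16, adjusted p = 7.66e-07) and by 1.82 in cKO mice (SE 0.17, adjusted p = 5.05e-05).

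Nt5e went from between 2.87 and 4.17 CPM to between 2.07 and 2.69 CPM in Ctrl mice, a log2 fold change of −0.67 (SE 0.22, adjusted p = 0.0159). This call was lost without IP replicate 1, IP replicate 2 or Input replicate 1, with adjusted p between 0.0694 and 0.0818, and in cKO mice (−0.89, SE 0.27, adjusted p = 0.0197) without IP replicate 1 or Input replicate 2, with adjusted p of 0.0624 and 0.0551. The cKO call of Adora1 was lost without IP replicate 2 (adjusted p = 0.0782). P2ry1 was the gene not called in either genotype (0.56 with adjusted p = 0.0564 in Ctrl, 0.65 with adjusted p = 0.0632 in cKO), and 2 of 7 alternatives called it in each genotype. Without IP replicate 3 of the Ctrl mice it was called, at 0.83 (adjusted p = 0.00544).

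**Figure D2:**
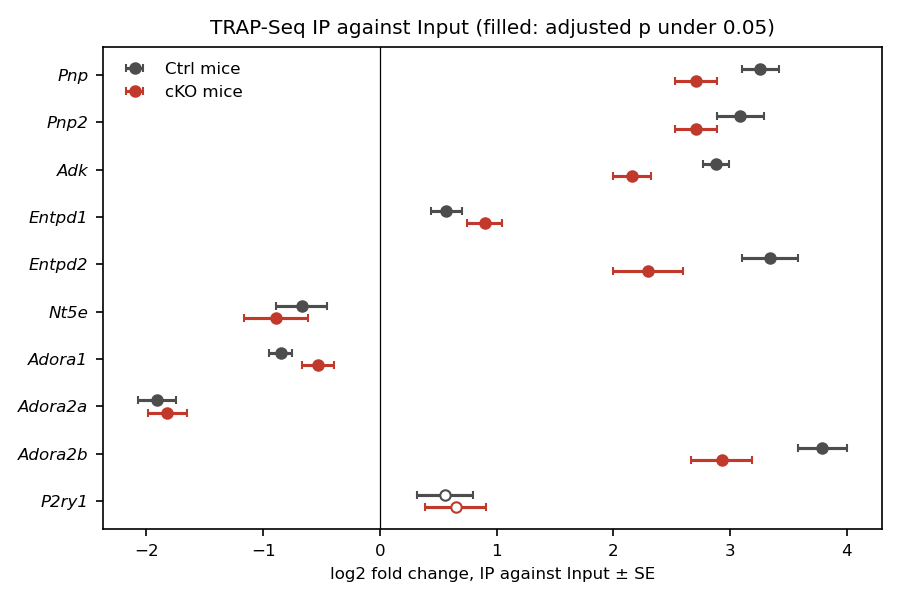
Log2 fold change of IP against Input (x axis, ± SE from edgeR) for each gene (y axis) in Ctrl (gray) and cKO (red) mice, n = 3 mice each, filled where the adjusted p is under 0.05. Adora2b, Entpd2, Pnp, Pnp2 and Adk lie between 2.16 and 3.79, and Nt5e, Adora1 and Adora2a between −1.91 and −0.53.

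Purine nucleoside phosphorylase is encoded in mice by Pnp (ENSMUSG00000115338) on chromosome 14 from 50931082 to 50965237, + strand, and by Pnp2 (ENSMUSG00000068417) within that span, from 50955992 to 50964749 on the same strand. Exons 2 to 5 of the main transcripts of both genes have the same lengths and can be laid over each other base by base. They are shown because they decide how well reads of the 2 genes can be told apart: of 641 bases, 636 were identical (99.2%), exon 4 did not differ at any of its 176 bases, and the longest identical run had 176 bases. Exon 3 of each gene, 104 bases in GRCm38 (chr14:50950258-50950361 for Pnp and chr14:50963105-50963208 for Pnp2), is printed 5′ to 3′ on the + strand with the 2 bases that differ in capitals.
Pnp: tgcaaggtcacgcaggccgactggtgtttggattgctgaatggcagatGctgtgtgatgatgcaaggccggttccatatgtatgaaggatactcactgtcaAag
Pnp2: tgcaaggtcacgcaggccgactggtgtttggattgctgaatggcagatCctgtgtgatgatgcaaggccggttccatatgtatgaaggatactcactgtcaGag
Pnp also shares 718 exonic bases with Gm49342 on the same strand, a gene model with 32 bases outside Pnp, and 356 exonic bases with Gm38316 on the opposite strand. In each of the 28 libraries Gm49342 had more reads than Pnp, between 1.31 and 1.53 times as many. Gm49342 was called higher in cKO mice by edgeR at P24 in bulk (log2 fold change 0.78, adjusted p = 0.00475) and in the IP (0.61, adjusted p = 0.00485). It was not called at P17 (0.59, adjusted p = 0.193) or in the Input (1.1, adjusted p = 0.25). How the authors' counting split reads among these genes, and whether it used the strand, is not given in the sources used here, so the values of Pnp and Pnp2 are uncertain as gene levels and describe the locus.

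Pnp was higher in cKO mice in every experiment. At P24 in bulk cortex the Ctrl mice held 9.82, 9.98, 9.05 and 9.37 CPM and the cKO mice 12.7, 17.4, 16.4 and 17.7 CPM. All cKO mice lay above all Ctrl mice, with cKO replicate 1 nearest to them, and the log2 fold change was 0.74 (SE 0.11, adjusted p = 0.00407, edgeR). In all, 3 of the 10 genes were called at P24 in bulk, Pnp, Pnp2 and Entpd2, each higher in cKO, where 1.72% of all genes tested were called and 1.26% were called higher. For 4 genes, these 3 and Adk, the groups did not overlap, as for 7.67% of all genes tested. The median log2 fold change of the 10 genes was 0.05, beside 0 over all genes tested. Of the 8 astrocyte markers 5 were called at P24 in bulk, Gfap (2.51), Aqp4 (1.25) and Aldh1l1 (1.18) higher and the glutamate transporters Slc1a2 (−0.41) and Slc1a3 (−0.40) lower in cKO on the log2 scale, and at P17 Gfap alone (1.03), and their part in the values of Pnp, Pnp2 and Entpd2 was not tested. The sums of the 8 markers overlapped between genotypes, with 4555 to 5166 CPM in Ctrl and 4979 to 5146 CPM in cKO mice at P24 and 5323 to 5609 CPM and 5406 to 5974 CPM at P17.

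At P17 the Ctrl mice held 11.1, 11.4, 11.7 and 10.6 CPM of Pnp and the cKO mice 15.2, 16.5, 21 and 16 CPM. These groups did not overlap either (exact two-sided permutation p = 0.0286, the smallest that 4 against 4 can give). The log2 fold change of 0.61 (SE 0.11) had an adjusted p of 0.0828, and none of the 10 genes was called at P17 by the quasi-likelihood test, where 0.0943% of all genes were. Of the 10, 4 had an unadjusted p under 0.05, and the share of all genes under it was not counted. DESeq2 called Pnp (0.193% of all genes called) and edgeR's exact test Pnp and Entpd2 (0.264%). These are the 2 genes whose groups did not overlap, as for 2.83% of all genes. Same-numbered cKO and Ctrl libraries deviated together at P17, and when that number was added as a block 2 genes were called, Pnp (adjusted p = 0.00248) and Entpd2 (adjusted p = 0.0358), with 0.514% of all genes called. In same-numbered pairs, Pnp, Pnp2, Entpd2 and Adora2b were higher in cKO in 4 of 4 pairs and P2ry1 was lower in 4 of 4. For each of these an exact two-sided sign-flip test, added after the values were seen, gave p = 0.125. That is the smallest p that 4 pairs allow, and any gene with all pairs of the same sign gets it. The test therefore cannot decide here, and the share of such genes among all genes was not counted.

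In the IP, Pnp was at 129, 134 and 100 CPM in Ctrl mice and at 185, 185 and 184 CPM in cKO mice (2568 to 4739 reads), a log2 fold change of 0.61 (SE 0.11, adjusted p = 0.00437). The Ctrl library of replicate 3 stood lowest and the groups did not overlap. In all, 6 of the 10 genes were called in the IP, 4 higher and 2 lower, where 20.0% of all genes tested were called, 11.6% higher and 8.42% lower. For 7 genes the groups did not overlap, as for 37.7% of all genes tested. The median log2 fold change of the 10 genes was 0.30, beside −0.01 over all genes. With all 12 TRAP-Seq libraries in one fit, only Pnp kept its call (adjusted p = 0.0471), and the other 5 genes had adjusted p between 0.0546 and 0.168. That fit called 7.67% of all genes tested.

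In the Input, Pnp was at 12.6, 14.8 and 10.2 CPM in Ctrl mice and at 34.2, 27.1 and 22.5 CPM in cKO mice. The groups did not overlap, and the log2 fold change of 1.16 (SE 0.21) had an adjusted p of 0.171. No gene of the 10 was called in the Input by the quasi-likelihood test, where 0.109% of all genes were. The 3 genes Pnp, Pnp2 and Entpd2 had groups that did not overlap, as for 11.9% of all genes. Of the 10, 3 had an unadjusted p under 0.05, and the share of all genes under it was not counted. DESeq2 and edgeR's exact test called 2 each, Pnp and Entpd2, with 0.533% and 0.571% of all genes called. Leaving out cKO replicate 1 also gave both calls (adjusted p = 0.0443 for Pnp and 0.0376 for Entpd2), with 0.458% of all genes called. The sum of the 8 astrocyte markers moved with genotype in the Input, from between 1113 and 1346 CPM in Ctrl to between 1780 and 2350 CPM in cKO, with a median log2 fold change of 0.85, and its part in the Input values of Pnp, Pnp2 and Entpd2 was not tested. In the IP Gfap was called higher (0.76) and Slc1a2 (−0.71) and Slc1a3 (−0.95) lower, and the same sums overlapped, between 12370 and 16290 CPM in Ctrl and between 12060 and 16570 CPM in cKO, with a median log2 fold change of −0.14.

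Pnp2 followed Pnp. It was at 2.86, 3.74, 3.44 and 3.49 CPM in P24 Ctrl bulk and at 4.50, 6.74, 6.38 and 7.34 CPM in cKO (39 to 103 reads), a log2 fold change of 0.88 (SE 0.17, adjusted p = 0.0188). The groups did not overlap, but the call was kept in 2 of the 8 fits that left out a library, those without Ctrl replicate 2 or cKO replicate 1. Without Ctrl replicate 1, 3 or 4 or cKO replicate 2, 3 or 4 the adjusted p lay between 0.0538 and 0.0727. In the IP it went from 54.4, 57.8 and 40.7 CPM to 77.6, 75.0 and 75.5 CPM, a log2 fold change of 0.58 (SE 0.12, adjusted p = 0.00808). At P17 the groups overlapped, although cKO was higher in each same-numbered pair, and the log2 fold change was 0.41 (SE 0.18, adjusted p = 1).

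The share of Pnp2 among the reads of Pnp and Pnp2 was compared between genotypes. Reads counted on Gm49342, which outnumbered those of Pnp in every library, are outside this share. How the counting split the locus is not known, so the share describes counted reads and not a fraction of Pnp2 transcripts. In the IP, where the reads were most numerous, it was 29.5 ± 0.616% in Ctrl and 29.2 ± 0.378% in cKO mice (SD, n = 3 each), a difference of −0.34 percentage points (exact two-sided permutation p = 0.4, smallest possible 0.1). In bulk it was 26.1 ± 2.39% and 27.9 ± 1.30% at P24 (n = 4 each, exact permutation p = 0.286) and 30.6 ± 2.90% and 27.7 ± 2.11% at P17 (n = 4 each, exact permutation p = 0.143). In the Input it was 31.9 ± 2.28% and 29.2 ± 0.499% (n = 3 each, exact permutation p = 0.2), and the p adjusted over the 4 comparisons was 0.381 or higher. Without Ctrl replicate 3 at P17 the difference went from −2.95 to −4.19 percentage points (exact permutation p = 0.0286, unadjusted, the smallest that 3 against 4 mice can give). It was the largest of the differences without single libraries, which lay between −4.19 and −1.93. Same-numbered mice were not treated as pairs in this test. Single bulk libraries bound this share loosely, as in P24 Ctrl replicate 1, where it was 22.5% with a 95% Wilson interval from 17 to 29.3%.

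Adk, the kinase that removes adenosine, was lower in the IP of cKO mice. The Ctrl IP libraries held 330, 315 and 324 CPM and the cKO libraries 251, 228 and 231 CPM (5093 to 8772 reads), a log2 fold change of −0.44 (SE 0.09, adjusted p = 0.00666). The groups lay well apart, and the call was kept in all 6 fits that left out a library. In P24 bulk, Adk was at 32.5, 32.6, 28.5 and 30.8 CPM in Ctrl and at 28.4, 25.7, 26.1 and 28.4 CPM in cKO mice. Ctrl replicate 3 and the highest cKO mice were nearly level, without overlap, and the log2 fold change of −0.20 (SE 0.06) did not pass the test (adjusted p = 0.171).

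At P17 Adk overlapped between genotypes (−0.04, SE 0.09), with 33.8 to 43.9 CPM in Ctrl and 32.4 to 38.4 CPM in cKO mice. In the Input it was at 42.8, 37.6 and 50.5 CPM in Ctrl and 62.1, 47.2 and 48.6 CPM in cKO mice, with a log2 fold change of 0.27 (SE 0.18, adjusted p = 0.812). The difference between the IP and Input effects of genotype was −0.72 (SE 0.20) with an unadjusted p of 0.00278 and an adjusted p of 0.226. None of the 10 genes passed this interaction test by the quasi-likelihood test, where 0.0582% of all genes did. Of the 10, 4 had an unadjusted p under 0.05, Pnp, Adk, Entpd2 and Adora2b, and the share of all genes under it was not counted. DESeq2 called Adk alone (adjusted p = 0.0219), with 1.05% of all genes called. The 8 astrocyte markers had a median log2 fold change of −0.82 in this interaction, beside −0.03 over all genes tested. Their part in the values of these genes was not tested.

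Of Entpd1, Entpd2 and Nt5e, Entpd2 was the one called in bulk tissue. It was at 6.96, 7.19, 7.48 and 5.74 CPM in P24 Ctrl mice and at 10.5, 16.6, 13.4 and 12.5 CPM in cKO mice (79 to 209 reads). Every cKO mouse lay above every Ctrl mouse, and the log2 fold change of 0.95 (SE 0.14, adjusted p = 0.00474) was kept as a call in all 8 fits without a library. At P17 it was at 8.96, 10.9, 9.92 and 10.3 CPM in Ctrl and at 12.7, 12.7, 16.7 and 14.3 CPM in cKO mice, again without overlap, with a log2 fold change of 0.50 (SE 0.11, adjusted p = 0.303, and 0.0358 with the replicate block).

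The Input showed the same direction for Entpd2 at low counts, with 1.43, 2.00 and 2.16 CPM in Ctrl and 3.51, 5.78 and 4.37 CPM in cKO mice (34 to 136 reads), a log2 fold change of 1.30 (SE 0.27, adjusted p = 0.278). In the IP the genotypes overlapped, with 13.2, 22.1 and 21.3 CPM in Ctrl and 15, 29.9 and 23.3 CPM in cKO mice, with a log2 fold change of 0.28 (SE 0.24, adjusted p = 0.466). Replicate 1 was the lowest in both genotypes. Entpd2, on chromosome 2 from 25395874 to 25401321, shares 612 exonic bases with Npdc1 on the same strand. Npdc1 had between 2.7 and 55.1 times the reads of Entpd2. Its log2 fold change was 0.06 (SE 0.06) for genotype at P24 in bulk and −0.59 (SE 0.14) for IP against Input in Ctrl mice. How reads on the shared bases were split is not given in the sources used here, so the Entpd2 values are uncertain as gene levels.

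Entpd1 was called in the IP, at 204, 186 and 180 CPM in Ctrl and 257, 244 and 224 CPM in cKO mice, with a log2 fold change of 0.35 (SE 0.10, adjusted p = 0.0247). The groups did not overlap, but the call was lost without cKO replicate 2 or Ctrl replicate 2 or 3, with adjusted p between 0.0626 and 0.0932. Sums of the microglial markers in the IP were 122.5 to 145.3 CPM in Ctrl and 133.4 to 254.9 CPM in cKO mice, and 2 of the 8 markers were called higher. Their part in the Entpd1 value was not tested. In bulk Entpd1 was between 60.3 and 70.6 CPM at both ages, with log2 fold changes of 0.07 (SE 0.05) at P24 and 0.05 (SE 0.05) at P17, and in the Input of 0.01 (SE 0.18).

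Nt5e, which makes adenosine from AMP, was scarce and was not called for genotype in any experiment. Its bulk levels ranged from 5.46 to 6.74 CPM in P24 Ctrl and from 3.29 to 6.19 CPM in P24 cKO mice, and the log2 fold changes were −0.32 (SE 0.18) at P24, 0.03 (SE 0.15) at P17, −0.25 (SE 0.26) in the IP and −0.03 (SE 0.21) in the Input. Its 2 lowest bulk values at P24 were those of cKO replicates 1 and 4, the libraries with the lowest striatal marker sums.

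**Figure D3:**
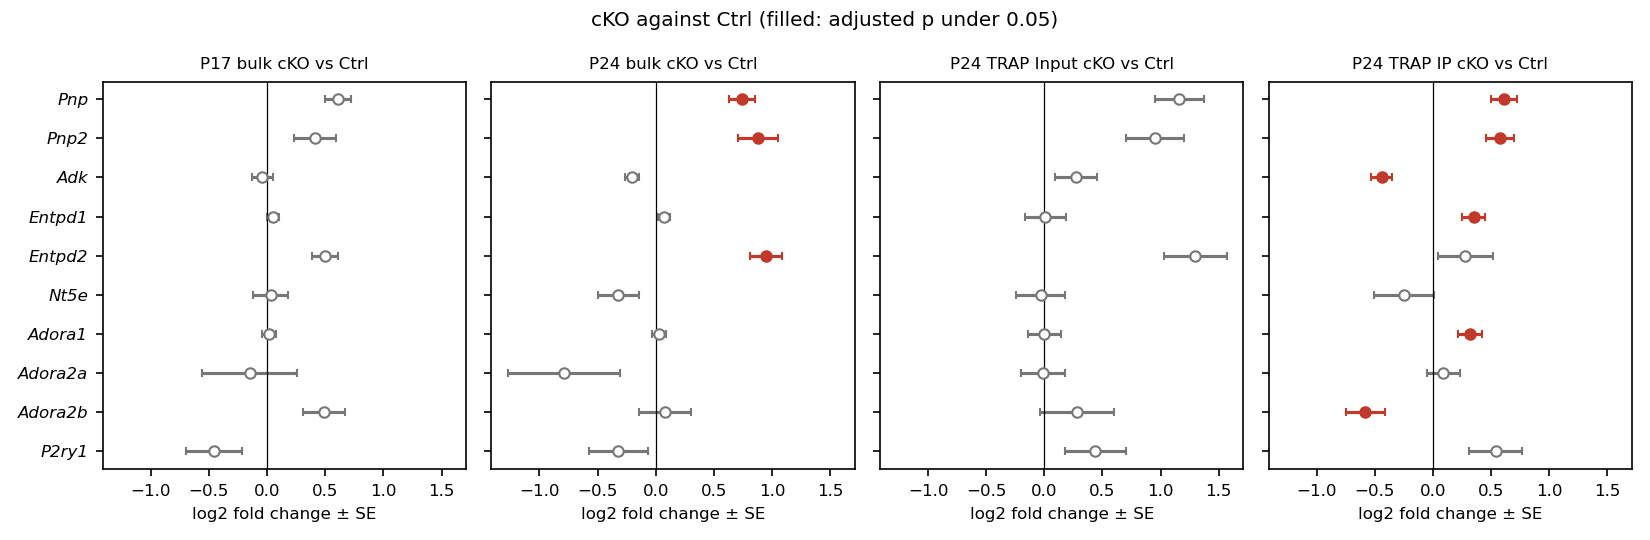
Log2 fold change of cKO against Ctrl (x axis, ± SE from edgeR) for each gene (y axis) in P17 bulk and P24 bulk (n = 4 mice per genotype) and in the P24 Input and IP (n = 3 each), filled red where the adjusted p is under 0.05. Pnp, Pnp2 and Entpd2 were called at P24 in bulk, and Pnp, Pnp2, Entpd1, Adora1, Adk and Adora2b in the IP, the last 2 with lower levels in cKO.

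Among the receptors, Adora1 overlapped between genotypes in bulk tissue and was called in the IP. The Ctrl IP held 104, 114 and 111 CPM and the cKO IP 137, 127 and 147 CPM, a log2 fold change of 0.32 (SE 0.10, adjusted p = 0.0374). The groups did not overlap, but without cKO replicate 3 or any of the 3 Ctrl libraries the adjusted p lay between 0.0786 and 0.156. In bulk the levels were 174, 190, 200 and 172 CPM in P24 Ctrl and 196, 181, 181 and 193 CPM in P24 cKO mice, with log2 fold changes of 0.03 (SE 0.06) at P24 and 0.02 (SE 0.06) at P17. Adora1, on chromosome 1 from 134199223 to 134235431 on the − strand, shares 1162 exonic bases with Mybph on the opposite strand. Mybph had between 0.334 and 0.436 times the reads of Adora1 and moved with it (0.34 in the IP, SE 0.10, adjusted p = 0.0303), so with the strand setting unknown their reads cannot be told apart.

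Adora2b, the low-affinity adenosine receptor, was lower in the IP of cKO mice, at 11, 16 and 13.5 CPM in Ctrl and 7.58, 8.59 and 10.6 CPM in cKO mice (178 to 424 reads). The lowest Ctrl library stood just above the highest cKO library, and the log2 fold change was −0.58 (SE 0.17, adjusted p = 0.0353). Without cKO replicate 1 or 2 or Ctrl replicate 2 or 3 the adjusted p lay between 0.0824 and 0.138. In bulk the counts were low, between 28 and 64 reads, and the genotypes overlapped, with log2 fold changes of 0.08 (SE 0.22) at P24 and 0.49 (SE 0.18, adjusted p = 1) at P17.

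P2ry1 was at 2.86, 3.06 and 1.76 CPM in the Ctrl IP and at 3.24, 4.34 and 3.53 CPM in the cKO IP (45 to 97 reads). The groups did not overlap, and the log2 fold change of 0.54 (SE 0.23) had an adjusted p of 0.122. In bulk it was −0.32 (SE 0.25) at P24 and −0.46 (SE 0.24) at P17, each with overlap. Between 0.143 and 0.727 times as many reads as for P2ry1 were counted on Gm37035, an antisense gene that shares 992 of its exonic bases.

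Adora2a, the receptor of striatal neurons of the indirect pathway, had the widest spread of the 10 genes in bulk relative to its mean. At P24 it was at 15.9, 20.5, 30.7 and 42.4 CPM in Ctrl and at 3.43, 30.6, 22.0 and 8.12 CPM in cKO mice, and at P17 at 35.8, 34.9, 7.61 and 29.8 CPM in Ctrl and 27.8, 32.2, 8.27 and 30.1 CPM in cKO mice. The low values were those of the 4 libraries with the lowest striatal marker sums, and the genotypes overlapped at both ages (−0.79, SE 0.48, adjusted p = 0.536 at P24 and −0.15, SE 0.41 at P17). Over the 8 mice at P24 the Adora2a level went with the marker sum, with Pearson's r = 0.988 (exact two-sided permutation p = 4.96e-05, adjusted over 2 relations 9.92e-05) and Spearman's rho = 0.976 (exact permutation p = 0.000397, adjusted 0.000794). Without the 2 mice farthest from the median sum r was 0.981. At P17 the 2 mice numbered 3 formed a cluster of their own, and within the other 6 mice r was 0.833 (exact permutation p = 0.0333) and rho 0.83 (exact permutation p = 0.0583).

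With the striatal marker sum as a covariate, an alternative chosen after the values were seen, the log2 fold change of Adora2a was −0.03 (SE 0.08) at P24 and −0.09 (SE 0.08) at P17. Because the sum tracked Adora2a so closely (r = 0.988 at P24), a small value was built into this fit. At P24 the median sum was 509.2 CPM in cKO and 670 CPM in Ctrl mice, with overlap. The fit therefore cannot separate genotype from the amount of striatal neuron RNA in a library. At P24 the same fit called Adk as well, at −0.26 (SE 0.07, adjusted p = 0.0471), beside Pnp, Pnp2 and Entpd2, with 4.32% of all genes called.

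**Figure D4:**
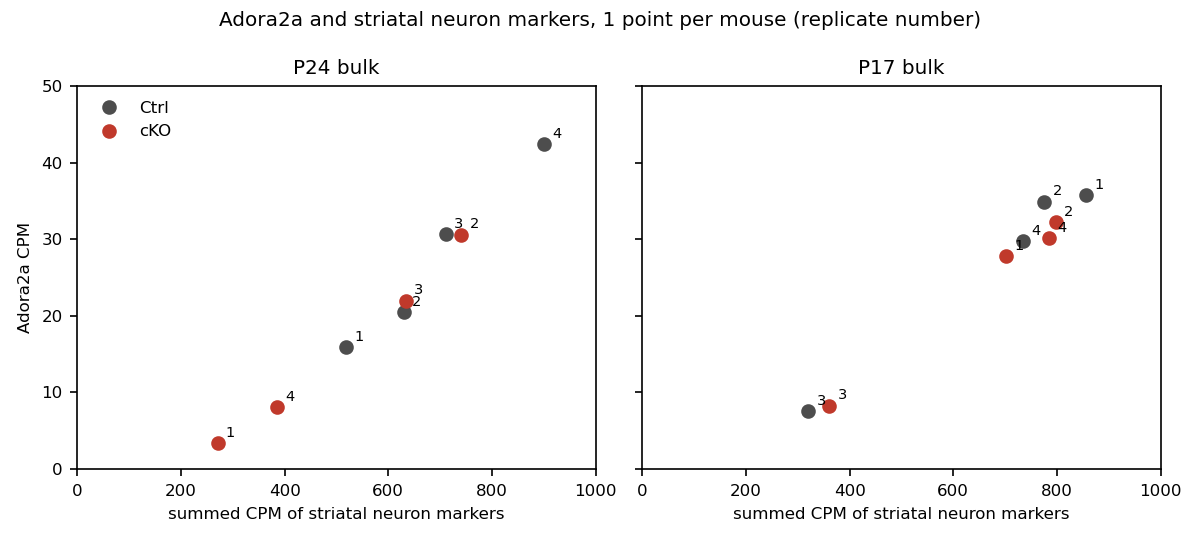
Adora2a in CPM (y axis) against the summed CPM of 7 striatal neuron markers (x axis) in the bulk libraries at P24 and P17, 1 point per mouse with its replicate number (Ctrl gray, cKO red). At P24 the points follow a line from cKO replicate 1 (270.5, 3.43) to Ctrl replicate 4 (900.2, 42.4), and at P17 the mice numbered 3 lie apart from the other 6.

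The effect of genotype was set against age in the bulk libraries. No gene of the 10 passed this interaction by the quasi-likelihood test, where 0.0470% of all genes did, and DESeq2 called none. An unadjusted p under 0.05 was found for 1 of the 10, and the share of all genes under it was not counted. That gene was Entpd2, whose log2 fold change was 0.45 larger at P24 than at P17 (SE 0.19, unadjusted p = 0.031 and adjusted p = 0.739 by edgeR over 16 libraries). For Pnp the difference was 0.13 (SE 0.16).

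Promoters, from 250 bases before to 50 after the annotated start, were found in the RefSeq table of GRCm38.p6 for 8 of the 10 genes, and Pnp2 and Adora2a had no entry. Adk has a second window, chr14:21075902-21076201, with 75% G and C, and the window at its first start is described. Those of the genes that were called in bulk and had an entry, Pnp and Entpd2, and of the genes lower in the cKO IP, Adk and Adora2b, are printed 5′ to 3′ on the + strand, with matches on either strand to the GC box GGGCGG and the CCAAT box CCAAT in capitals.
Pnp, chr14:50944053-50944352: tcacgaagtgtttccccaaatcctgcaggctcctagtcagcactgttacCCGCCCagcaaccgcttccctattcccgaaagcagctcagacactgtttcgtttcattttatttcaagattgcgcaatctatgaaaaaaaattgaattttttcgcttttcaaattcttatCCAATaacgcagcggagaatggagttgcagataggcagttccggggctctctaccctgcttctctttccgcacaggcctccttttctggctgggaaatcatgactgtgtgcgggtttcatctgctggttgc
Entpd2, chr2:25395624-25395923: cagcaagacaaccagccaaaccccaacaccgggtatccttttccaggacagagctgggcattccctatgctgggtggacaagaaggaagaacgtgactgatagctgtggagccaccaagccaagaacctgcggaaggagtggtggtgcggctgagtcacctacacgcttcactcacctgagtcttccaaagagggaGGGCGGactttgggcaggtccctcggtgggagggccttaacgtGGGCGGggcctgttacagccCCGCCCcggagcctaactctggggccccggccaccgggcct
Adk, chr14:21052324-21052623: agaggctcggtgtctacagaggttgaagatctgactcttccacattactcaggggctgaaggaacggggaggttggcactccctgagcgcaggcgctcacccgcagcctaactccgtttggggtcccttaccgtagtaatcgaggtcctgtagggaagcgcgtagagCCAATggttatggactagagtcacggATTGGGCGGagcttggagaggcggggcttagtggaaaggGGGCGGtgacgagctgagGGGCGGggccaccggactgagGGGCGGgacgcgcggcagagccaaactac
Adora2b, chr11:62248734-62249033: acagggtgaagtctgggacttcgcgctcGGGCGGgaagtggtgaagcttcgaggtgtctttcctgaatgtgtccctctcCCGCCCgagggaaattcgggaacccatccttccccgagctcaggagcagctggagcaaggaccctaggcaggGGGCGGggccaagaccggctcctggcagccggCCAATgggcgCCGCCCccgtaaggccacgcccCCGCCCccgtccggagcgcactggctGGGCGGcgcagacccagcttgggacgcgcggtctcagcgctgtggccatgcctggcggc
The GC box occurred 1 time in the Pnp window, 3 times in that of Entpd2, 4 times in that of Adk and 6 times in that of Adora2b, and 35.7% of 32851 promoters hold it. The CCAAT box occurred in the windows of Pnp, Adk and Adora2b and in 37.4% of promoters. The E-box CACGTG, the cAMP response element TGACGTCA and the STAT motif TTCCNGGAA, which 7.15%, 1.79% and 1.15% of promoters hold, were in none of the windows of the 8 genes. The Pnp window held 47.3% G and C, where the median promoter held 52.7% and those of Entpd2, Adk and Adora2b held 62.0%, 61.7% and 70%.

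A further 75 genes of purine handling, in 6 lists, were compared for genotype in the same fits. At P24 in bulk 61 were tested, 3 rose and none fell (4.92% called, beside 1.72% of all genes), with a median log2 fold change of 0.01 beside 0 over all genes. Those that rose were P2ry2, a Gq-coupled receptor for ATP and UTP (1.98, SE 0.38, adjusted p = 0.021, from 0.424 ± 0.197 to 1.70 ± 0.596 CPM, 2 to 34 reads), the lysosomal nucleoside transporter Slc29a3 (0.40, SE 0.08, adjusted p = 0.0351), and the nucleoside diphosphatase Entpd5 (0.33, SE 0.05, adjusted p = 0.00639). At P17 none of 56 and in the Input none of 59 were called by the quasi-likelihood test, where 0.0943% and 0.109% of all genes were. Among these list genes 2 at P17 and 1 in the Input had an unadjusted p under 0.05. The share of all genes under it was not counted.

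In the IP 56 of these genes were tested, 6 rose and 7 fell, and their median log2 fold change was 0.01. The 13 called are 23.2% of those tested, near the 20.0% called of all genes. Of 20 genes of purine breakdown and salvage, 2 rose and 4 fell. Aprt, which salvages adenine, went from 43.7 ± 1.40 to 68.5 ± 5.47 CPM (SD over 3 mice each) with a log2 fold change of 0.66 (SE 0.10, adjusted p = 0.00136), and the AMP deaminase Ampd3 rose by 0.53 (SE 0.11, adjusted p = 0.00769). Another AMP deaminase, Ampd2, fell from 33.0 ± 1.74 to 17.8 ± 2.56 CPM (−0.88, SE 0.12, adjusted p = 0.00101), and the cytosolic nucleotidase Nt5c2 fell by 0.53 (SE 0.11, adjusted p = 0.00557). Of 11 genes of de novo purine synthesis, Prps2 rose (0.67, SE 0.10, adjusted p = 0.00108) and Pfas fell (−0.59, SE 0.14, adjusted p = 0.0126).

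Of 8 other enzymes of extracellular nucleotides tested in the IP, Cd38, an ectoenzyme that consumes NAD, fell from 19.7 ± 2.69 to 9.87 ± 2.35 CPM (−0.99, SE 0.18, adjusted p = 0.00353), and Enpp2 (autotaxin) fell as well (−0.46, SE 0.11, adjusted p = 0.0117). Of 8 other purine receptors 2 rose, P2ry2 (1.56, SE 0.39, adjusted p = 0.0168) and the ATP-gated channel P2rx4 (0.72, SE 0.18, adjusted p = 0.0186). The nucleoside transporter Slc28a1 rose among 6 transporters (0.41, SE 0.12, adjusted p = 0.0331), and none of 3 genes of ATP release was called.

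**Figure D5:**
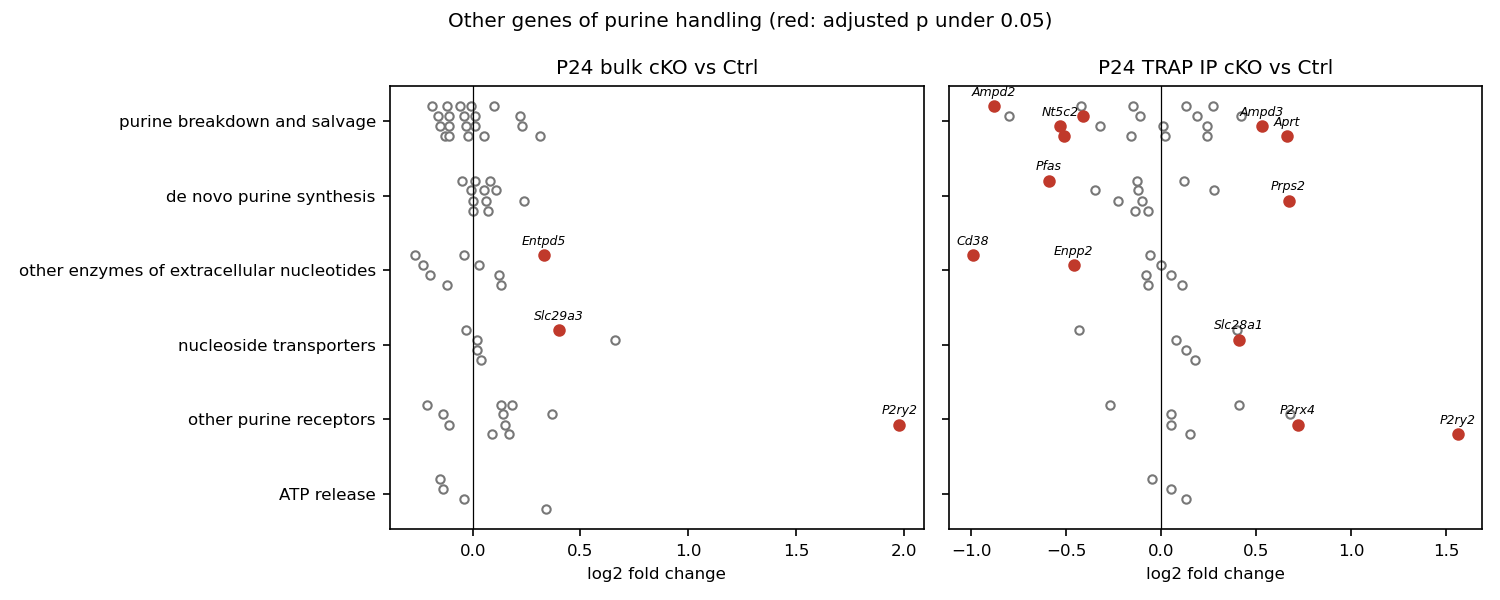
Log2 fold change of cKO against Ctrl (x axis) of the other purine genes, 1 point per gene tested, by list (y axis), in P24 bulk (left) and in the P24 IP (right). Red points have an adjusted p under 0.05, and up to 2 in each direction per list are named; 3 of 61 were called in bulk and 13 of 56 in the IP.

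Across all 28 libraries, centered within each count table, the genes most like each of the 10 were found among 19939 genes by Pearson's r of log2 CPM, as a description in which the difference between IP and Input libraries has a large part. Pnp was nearest to Gm49342 (0.999), Gm38316 (0.995) and Pnp2 (0.992), all of its own locus. Adk was nearest to Tom1l1 (0.989), Hopx (0.986) and Gabrg1 (0.986), Entpd2 to Vcam1 (0.975), Cyp2d22 (0.975) and Ednrb (0.974), and Adora2b to Amt (0.982), Fam151a (0.980) and Acot11 (0.976). Entpd1 was nearest to Ptp4a1 (0.986), Adora1 to Mybph (0.967) and then Ciz1 (0.966), and Adora2a to Rxrg (0.982), Syndig1l (0.981) and Sh3rf2 (0.975). Nt5e and P2ry1 had no neighbor of that closeness, with Dner at 0.874 and Gm11954 at 0.773. Among the 10 genes themselves, Adk and Adora2b (0.951) and Pnp and Entpd2 (0.954) went together, and Adora1 ran opposite to Adk (−0.938).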

How the data were processed

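The authors mapped reads to mm10, and the submitters' processing notes name STAR and edgeR without versions; the counting tool and its strand setting are not given in the sources used here. The deposited files hold raw counts of reads per Ensembl gene, without normalization, in 3 tables of 53342 identifiers, of which 53237 were found in GENCODE M21. The age of a bulk table appears nowhere but in its name, and this assignment was checked against the study's gene lists. The genes and lists were chosen with earlier results of these data known. The gene deleted in cKO mice is not reported here.

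Genotypes and fractions were compared with edgeR 4.0.16 under R 4.3.3, using TMM factors, filterByExpr (minimum count 10, total 15, proportion 0.7), and glmQLFit and glmQLFTest without a block, two-sided, with Benjamini–Hochberg adjustment over all genes tested and a threshold of 0.05. The SE is the log2 fold change divided by the square root of F. Single CPM values and shares were compared with exact two-sided permutation tests, shares carry 95% Wilson intervals, and intervals and floors of 3 counts cover counting error only. Scripts were tested on simulated data. RPKM used the union of exons in GENCODE M21. Log2 CPM for likeness used a prior count of 2.

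The same replicate number was taken as pairing where every same-numbered cKO and Ctrl pair of libraries had residuals correlated above 0.1 across genes. This held at P17 (0.321, 0.184, 0.38 and 0.167) and not at P24 (0.029 to 0.218), in the IP (0.036 to 0.116) or in the Input (−0.034 to 0.102). IP and Input libraries of a number come from the same mouse. Their residuals nonetheless correlated at only 0.069 to 0.08 in Ctrl and −0.102 to 0.122 in cKO mice. Known pairs thus failed this rule, so it cannot exclude pairing at P24, in the IP or in the Input. Replicate libraries differed by more than counting error (chi-square per degree of freedom from 2.59 to 78.6 over 36 pairs).

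The text names all 10 genes, up to 2 called genes per direction of each list and comparison, the 3 most similar genes or the nearest of them, and, chosen after their values were seen, the genes that overlap one of the 10. Alternatives were RLE factors, DESeq2 1.42.0, edgeR's exact test, other filters, the replicate block, all TRAP-Seq libraries in one fit, the longest transcript as gene length and leaving out each library.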

Additional observations from a re-analysis of the deposited data

Results flagged for a closer look

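A single library stood apart from the other 3 of its group in 3 of the 40 sets of 4 bulk libraries examined for the 10 genes, measured by its gap to the nearest library over the range of the group; chance gives about 1 in 20. Adk was at 43.9 CPM in P17 Ctrl replicate 1, where the other Ctrl mice lay between 33.8 and 35.5 CPM. Entpd1 was at 64.6 CPM in P24 cKO replicate 1, where the other cKO mice lay between 70.2 and 70.6 CPM. P2ry1 was at 3.28 CPM in P24 cKO replicate 4, where the other cKO mice lay between 2.36 and 2.46 CPM. None of these genes was called for genotype in the comparison concerned.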

How the results depend on the processing

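At P24 in bulk, 3 of the 10 genes were called in 6 of 7 alternatives and 4 with the striatal marker sum as a covariate, and 2 to 3 without single libraries. At P17, where none was called, DESeq2, the fit with no filter beyond 1 count and the covariate gave 1, and the exact test gave 2. With the replicate block P17 had 2 calls, and in the other comparisons the block changed no count of calls. In the IP, 6 genes were called in 6 of 7 alternatives, 1 when the 12 TRAP-Seq libraries shared a fit, and 3 to 5 without single libraries, 3 without Ctrl replicate 2 or Ctrl replicate 3. In the Input, DESeq2, the exact test and no filter beyond 1 count gave 2, all libraries in one fit 1, and single libraries left out 0 to 2. DESeq2 gave 1 for the interaction of fraction and genotype. Over all genes, the calls numbered 388 at P24 (385 to 971 under the alternatives that kept all libraries), 20 at P17 (18 to 109), 4782 in the IP (1830 to 6735), 26 in the Input (8 to 136), 11 for age and genotype (11 to 62) and 15 for fraction and genotype (6 to 271). Without single libraries they ranged from 216 to 950, 11 to 19, 2633 to 4810, 4 to 112, 4 to 149 and 3 to 432, the highest counts at P24 and for age being those without P24 cKO replicate 1, and in the Input and for fraction those without Input cKO replicate 1. In IP against Input, 9 of the 10 genes were called in Ctrl and in cKO mice, 10 under 2 of 7 alternatives each, which added P2ry1: in Ctrl with no filter beyond 1 count (adjusted p = 0.0383, edgeR) or at least 10 counts in every library (0.0274), and in cKO with the latter (0.0397) or all libraries in one fit (0.0354). Without single libraries 8 to 10 were called in Ctrl and 8 to 9 in cKO mice. The causes of these differences were not tested. The difference in Pnp2 share at P17 lay between −4.19 and −1.93 percentage points without single libraries, the former without Ctrl replicate 3. Fitting all bulk libraries of a table together is the same fit as the main one and was not run.

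Of 520 log2 fold changes under the alternatives, 489 kept direction and call and 6 changed direction, none of them called: with the covariate at P24 Adora1 (−0.01) and Adora2b (−0.13), and in the Input Adora1 (0 with RLE factors and DESeq2) and Adora2a (0.01 with no filter and with the replicate block). Without single libraries, direction also changed for uncalled values, whose ranges were in P24 bulk 0 to 0.07 for Adora1 and −0.17 to 0.23 for Adora2b; in P17 bulk −0.08 to 0.06 for Adk, −0.05 to 0.11 for Nt5e, 0 to 0.06 for Adora1 and −0.45 to 0.14 for Adora2a; in the Input −0.11 to 0.18 for Entpd1, −0.16 to 0.11 for Nt5e, −0.04 to 0.09 for Adora1 and −0.16 to 0.17 for Adora2a; for age and genotype −0.04 to 0.06 for Adora1 and −0.07 to 0.42 for P2ry1; and for fraction and genotype −0.10 to 0.23 for Adora2a and −0.14 to 0.24 for P2ry1. Low counts of Nt5e, P2ry1 and, in bulk and Input, Adora2b limit what these libraries can show of them.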
